A study of Homo sapiens with 8 samples.

Results

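The 10 genes examined here make, remove, transport or sense extracellular adenosine and were chosen by symbol from the 59050 gene symbols counted in each library: NT5E, ENTPD1, ENTPD2, ENTPD3, ADA, ADK, ADORA1, ADORA2A, ADORA2B and SLC29A1. All 10 were found, and 8 passed the filter on low counts. RNA was sequenced from tumours grown as xenografts from the lung cancer line H2122, an established line of human origin. Parental cells, labelled WT, gave 4 tumours, and 4 came from cells with a SMARCA4 knockout, and all 8 tumours had received vehicle. SMARCA4, also called BRG1, is a catalytic subunit of SWI/SNF, a group of complexes that move nucleosomes. The labels give neither the way the knockout was made nor whether it is 1 clone, and they do not describe the host mice. Nothing states that the replicates came from separate animals, so the p-values measure the spread between these samples only.

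Extracellular adenosine is a signalling nucleoside that damps immune responses and accumulates in many tumours. ATP outside the cell is stripped of phosphate to ADP and AMP by the cell-surface NTPDases (ENTPD1, also called CD39, ENTPD2 and ENTPD3), and AMP is turned into adenosine by the ecto-5'-nucleotidase NT5E, also called CD73. Adenosine then acts on the G protein-coupled receptors ADORA1, ADORA2A, ADORA2B and ADORA3, enters cells through the equilibrative transporter SLC29A1, and is removed by ADA, which deaminates it to inosine, or ADK, which phosphorylates it to AMP.

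Of the 8 tested genes 3 changed: ENTPD3 fell, while ENTPD2 and NT5E rose. The 250 bases that precede their RefSeq start sites (GRCh38.p14) are shown because these are the 3 genes on which the results turn. Whether these bases regulate the genes was not measured. Capitals mark matches, on either strand, to 5 motifs: the AP-1 motif TGANTCA, the cyclic AMP response element half-site TGACG, the hypoxia-inducible factor core ACGTG, the TEAD motif GGAATG and the GC box GGGCGG. Each is written 5′ to 3′ on the gene's own strand, and overlapping matches run together. The windows are chr6:85449833-85450082 on the plus strand for NT5E, chr9:137054062-137054311 on the minus strand for ENTPD2 and chr3:40386934-40387183 on the plus strand for ENTPD3. In the GENCODE 29 annotation NT5E starts at 85449584, so its window lies inside the gene. ENTPD3 starts there at 40387156, so the end of its window lies inside the gene too.
NT5E: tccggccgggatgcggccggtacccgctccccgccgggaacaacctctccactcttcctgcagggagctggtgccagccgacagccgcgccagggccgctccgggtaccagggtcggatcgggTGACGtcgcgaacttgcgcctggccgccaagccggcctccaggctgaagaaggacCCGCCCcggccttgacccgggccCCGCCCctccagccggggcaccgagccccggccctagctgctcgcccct
ENTPD2: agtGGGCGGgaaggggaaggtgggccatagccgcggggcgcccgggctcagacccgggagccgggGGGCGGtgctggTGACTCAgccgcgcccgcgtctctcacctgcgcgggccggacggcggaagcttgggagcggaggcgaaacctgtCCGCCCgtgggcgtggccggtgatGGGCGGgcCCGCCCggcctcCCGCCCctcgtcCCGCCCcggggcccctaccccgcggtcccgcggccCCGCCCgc
ENTPD3: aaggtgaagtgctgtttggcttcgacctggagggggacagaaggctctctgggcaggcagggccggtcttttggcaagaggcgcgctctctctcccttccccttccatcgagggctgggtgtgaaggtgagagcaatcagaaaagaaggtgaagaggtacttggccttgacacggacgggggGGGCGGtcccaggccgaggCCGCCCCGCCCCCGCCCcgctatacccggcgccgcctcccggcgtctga
All 3 windows were rich in G and C, at 75.2% for NT5E, 80.8% for ENTPD2 and 66.0% for ENTPD3, against a median of 58.0% over 35116 promoter windows of the same length. They held 28, 36 and 18 CpG dinucleotides, against a median of 11. GC boxes, the sites of SP-family factors, numbered 2 in the NT5E window, 8 in ENTPD2 and 4 in ENTPD3, and at least 1 was present in 42.6% of all windows. The NT5E window held 1 cyclic AMP half-site (21.2% of all windows held one), and the ENTPD2 window held 1 AP-1 match, TGACTCA (6.57% of all windows). No match to the hypoxia or TEAD letters was present in any of the 3 windows (18.5% and 11.9% of all windows held them). A match describes the letters only; binding was not measured.

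Libraries held 19785922 to 23191698 gene counts. As a check of the labels, SMARCA4 itself was at 198 to 235 CPM (read counts scaled to a common TMM-adjusted library size) in parental tumours and 22.3 to 31.1 CPM in knockout tumours, so each library lay on the side its label gives. Over all genes, 4385 of 16219 tested changed at an adjusted p under 0.05 by edgeR's quasi-likelihood test, or 27.0%: 13% were higher and 14.1% lower in knockout tumours. Epithelial and carcinoma markers were abundant in all tumours (7506 to 8815 CPM summed over 9 markers in the parental and 6600 to 7973 CPM in the knockout group), although the lung lineage gene NKX2-1 had 0 counts in every library and NAPSA had 16 to 26. Leukocyte markers summed to 11.99 to 95.8 CPM in the parental and 18.0 to 36.8 CPM in the knockout group, endothelial markers to 7.66 to 18.4 and 9.34 to 15.7 CPM, and skeletal muscle markers to 5.23 to 41.7 and 2.68 to 16.3 CPM. Within the marker lists edgeR called 5 markers changed. VWF of endothelium (log2 fold change -2.37, adjusted p = 0.00041), KRT19 (-1.01, 8.49e-05) and KRT7 (-0.71, 0.000333) of epithelium and MB of muscle (-0.98, 0.0471) fell, and LUM of fibroblasts (5.00, 1.98e-06) rose. These were 2 of 8 tested epithelial markers, 1 of 2 endothelial, 1 of 4 fibroblast and 1 of 1 muscle markers. Of 9 tested leukocyte markers 0 changed, where 27.0% of all genes did. Mitochondrial genes took 4.74% to 9.47% of gene counts in the parental and 8.57% to 10.9% in the knockout group, and 6.08% to 8.76% and 7.32% to 10.4% of reads lay outside genes; both ranges overlapped, and their part in the results was not tested. Whether reads of the mouse host were removed is not given in the sources used here. In bulk tumour RNA, fewer cells of a type and less RNA per cell cannot be told apart.

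Read against the 27.0% of all genes, the 3 changed among 8 tested adenosine genes (37.5%) are a share near the background for a group of this size. Higher calls numbered 2 (13% of all genes were called higher) and lower calls 1 (14.1%). The knockout and parental values did not overlap for 2 of the 8, ENTPD2 and ENTPD3, against 29.3% of all genes tested. The median log2 fold change of the 8 was 0.13, against 0.00345 over all genes tested, with 4 genes above 0 and 4 below.

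**Figure D1:**
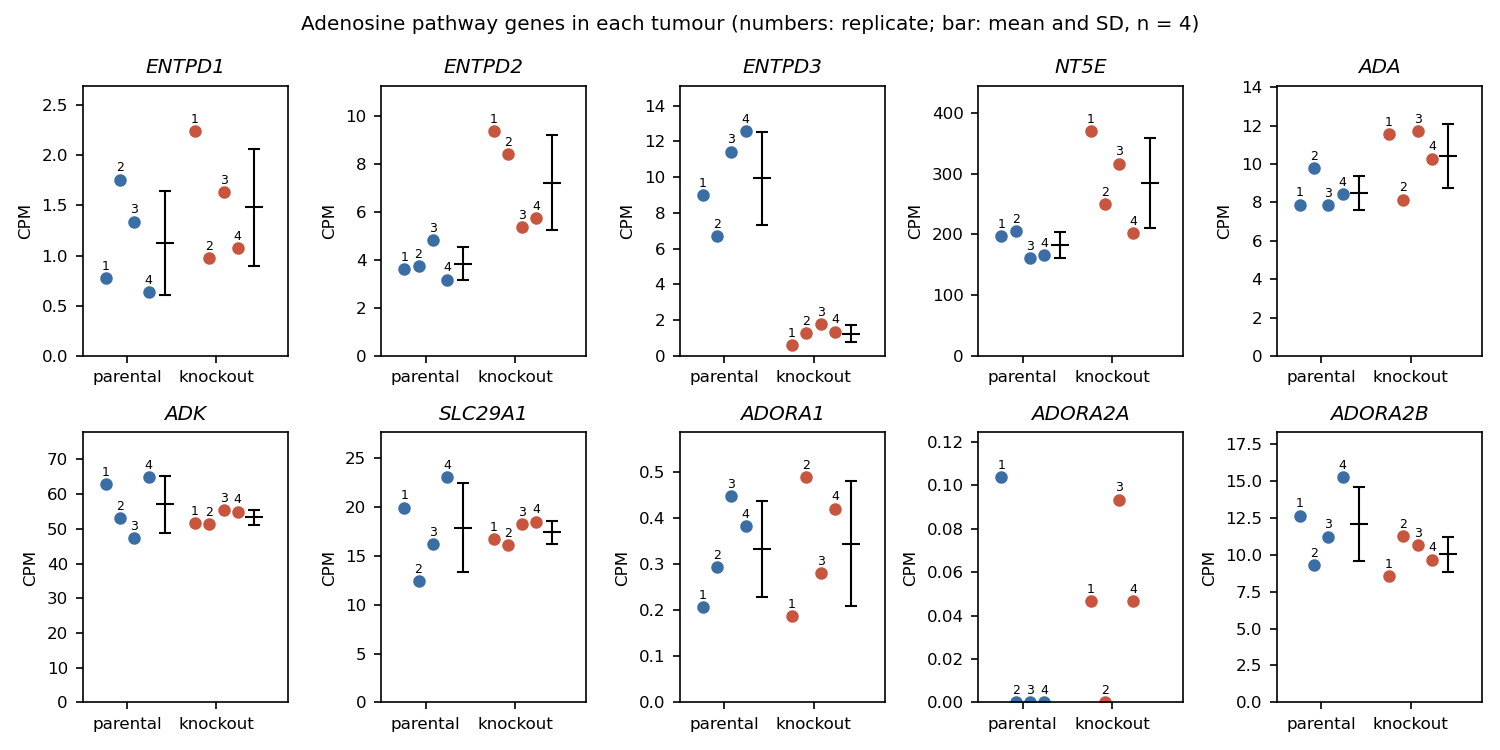
Expression of the 10 adenosine genes in each tumour, as CPM on a linear axis from 0 for each gene; points are tumours numbered by replicate, and the black bar is the mean ± SD of 4 tumours, left out for ADORA2A with its 6 counts in all. The groups are apart for ENTPD2 and ENTPD3 and overlap for the other 8 genes.

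The NTPDases, which start the breakdown of extracellular ATP, moved in opposite directions. ENTPD3 (chromosome 3, 40387156 to 40428744, plus strand, GENCODE 29 on GRCh38) encodes NTPDase3, an enzyme of epithelial and neural tissues that hydrolyses both ATP and ADP. It was at 9.01, 6.69, 11.4 and 12.6 CPM in parental replicates 1 to 4 and at 0.607, 1.27, 1.77 and 1.35 CPM in knockout replicates 1 to 4. Every knockout tumour lay far below every parental tumour, and the lowest parental value was still several times the highest knockout value. Mean ENTPD3 was 9.93 ± 2.62 CPM in the parental group (SD, n = 4), which is 7.94 times the knockout mean of 1.25 ± 0.482 CPM (SD, n = 4). By edgeR its log2 fold change was -2.99 (SE 0.30, adjusted p = 2.91e-05), with 13 to 38 counts per knockout library behind it. For comparison, SMARCA4 itself, still at 478 to 666 counts per knockout library, had a log2 fold change of -3.02 (SE 0.12).

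ENTPD3 shares exonic sequence with an antisense gene, ENTPD3-AS1, chosen for mention after its values were seen. Whether the counting used strand is not given in the sources used here, so reads of the shared part cannot be assigned to either gene with certainty. ENTPD3-AS1 ran the other way, from 0.976 to 1.61 CPM in parental tumours up to 1.96 to 3.08 CPM with the knockout, a difference that edgeR put at 0.71 on the log2 scale (SE 0.24; adjusted p = 0.0493). The antisense call was lost when any 1 of the 8 tumours was left out, with adjusted p-values of 0.0602 to 0.134.

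ENTPD2 (chromosome 9, 137048098 to 137054045, minus strand) encodes NTPDase2, which prefers ATP and releases mostly ADP. It was at 3.63, 3.76, 4.82 and 3.19 CPM in parental replicates 1 to 4 and at 9.39, 8.43, 5.37 and 5.74 CPM in knockout replicates 1 to 4. All knockout tumours lay above all parental tumours, with replicates 1 and 2 the highest. The mean rose from 3.85 ± 0.694 to 7.23 ± 1.98 CPM (SD, n = 4 each), which is 1.88-fold, or 0.91 in log2 units by edgeR (SE 0.22; adjusted p = 0.00927).

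ENTPD1 (chromosome 10, 95711779 to 95869695, plus strand) encodes CD39, the NTPDase of endothelial cells and many leukocytes. Its counts were low in both groups. They came to 0.777, 1.76, 1.34 and 0.638 CPM in parental replicates 1 to 4 and to 2.24, 0.975, 1.63 and 1.07 CPM in knockout replicates 1 to 4. The groups overlapped, and the log2 fold change of 0.40 (95% interval -0.43 to 1.22, edgeR adjusted p = 0.476) missed the threshold; the interval does not exclude a change of either sign. Among parental tumours the 2 with the most ENTPD1, replicates 2 and 3, were also those with the highest leukocyte marker sums (95.8 and 80.7 CPM, against 17.7 and 11.99 CPM in replicates 1 and 4). In knockout tumours the leukocyte sums were 30.9, 36.8, 25.4 and 18.0 CPM for replicates 1 to 4, an order that ENTPD1 did not follow. With the leukocyte sum as a covariate, added with the values in view, the log2 fold change was 0.68 (edgeR adjusted p = 0.118). With the fibroblast sum it was 0.0048 (adjusted p = 0.992). Leaving out 1 tumour gave 0.13 (without knockout replicate 1) to 0.69 (without parental replicate 2), with no call. Whether leukocytes or fibroblasts had a part in the level of ENTPD1 was not tested. Its antisense neighbour ENTPD1-AS1, which overlaps its exons, held more counts than ENTPD1 itself in every library (15.1 to 22.6 CPM over all 8) and had a log2 fold change of 0.21 (adjusted p = 0.190). AL365273.2, a protein-coding gene on the same strand as ENTPD1, also overlaps its exons and had 0 counts in every library. How reads of the shared part were counted is not given. The low level of ENTPD1 therefore cannot be read as scarcity with certainty.

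Set side by side per length, as CPM per kilobase of exon, the 4 cell-surface NTPDase genes differed in their mixture between the groups, while their sums overlapped. ENTPD8, the remaining cell-surface NTPDase and a gene of liver and gut epithelium, was added for this purpose. The sum was 4.05, 3.65, 5.35 and 5.04 CPM per kb in parental replicates 1 to 4 and 4.80, 4.07, 2.99 and 2.94 CPM per kb in knockout replicates 1 to 4, so the groups overlapped. ENTPD3 made up 60.1% ± 7.58 of the sum in parental and 10.3% ± 5.54 in knockout tumours, and ENTPD2 32.8% ± 6.33 and 73.8% ± 4.35 (SD, n = 4 each). In every parental tumour ENTPD3 was the most abundant of the 4 per length, and in every knockout tumour ENTPD2 was. These shares restate the changes of the single genes and were given no test of their own. They use the ENTPD1 counts as given, with the overlaps named above. ENTPD8 itself was at 4 to 17 counts per parental and 14 to 45 per knockout library, and its difference by edgeR was 1.35 in log2 units (SE 0.47; adjusted p = 0.0546). That miss was narrow and depended on the analysis: DESeq2 gave an adjusted p of 0.0448, upper-quartile scaling 0.0479, no filter on low counts 0.0337, and leaving out parental replicate 4, knockout replicate 3 or knockout replicate 4 gave 0.0332, 0.0467 and 0.0434. Without knockout replicate 1, which held 45 of the 95 knockout counts, the log2 fold change was 0.85 (adjusted p = 0.193).

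**Figure D2:**
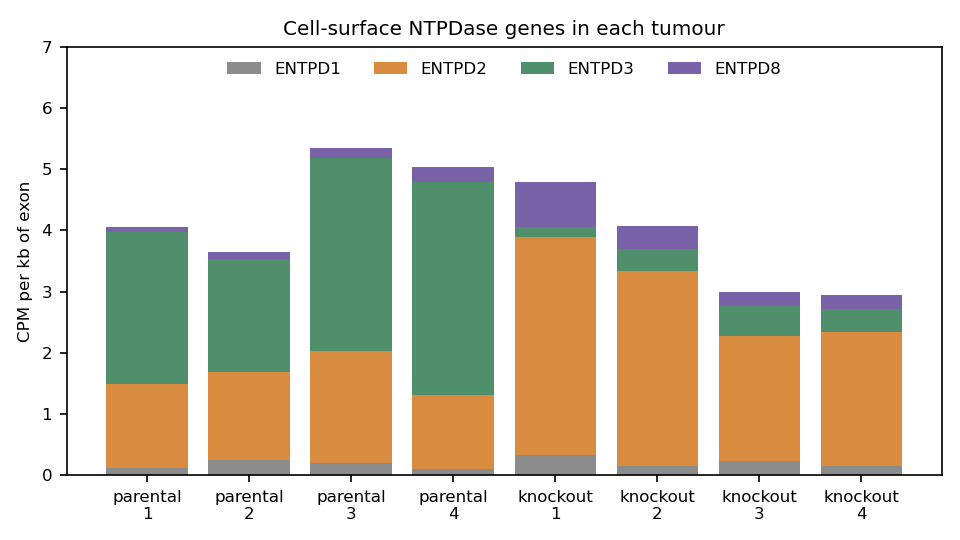
Level of the 4 cell-surface NTPDase genes in each tumour, stacked, in CPM per kilobase of exon from 0. ENTPD3 is the largest part of all 4 parental bars and ENTPD2 of all 4 knockout bars, while the height of the bars overlaps between the groups (3.65 to 5.35 and 2.94 to 4.80).

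NT5E (chromosome 6, 85449584 to 85495791, plus strand) encodes CD73, the enzyme that makes adenosine from AMP at the cell surface. It was at 197, 205, 161 and 166 CPM in parental replicates 1 to 4 and at 370.1, 249.95, 316 and 202 CPM in knockout replicates 1 to 4. Knockout replicates 1, 2 and 3 lay above all parental tumours, and knockout replicate 4 lay just under parental replicate 2. The mean rose from 182 ± 22.0 to 285 ± 74.0 CPM (SD, n = 4 each), or 1.56-fold, and edgeR put the log2 fold change at 0.64 (SE 0.17; adjusted p = 0.0156). On the CPM alone, the exact permutation test (two-sided, 4 tumours in each group) gave p = 0.0571, where 0.0286 is the smallest such a test can give. Leaving out 1 tumour gave log2 fold changes of 0.49 (without knockout replicate 1) to 0.78 (without knockout replicate 4) and adjusted p-values of 0.00321 to 0.0481, all called.

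The knockout tumours with the most NT5E, replicates 1 and 3, also had the highest sums of fibroblast markers within that group. The sum over 8 markers was 349, 607, 347 and 179 CPM in parental replicates 1 to 4 and 587, 343, 603 and 376 CPM in knockout replicates 1 to 4, and the groups overlapped. Most of it was COL1A1. The markers THY1, PDGFRA, PDGFRB and DCN were at 0 to 1, 0 to 3, 1 to 11 and 0 to 9 counts per library. How far reads of mouse host fibroblasts entered these human counts is not given. All 8 markers had counts, 4 were tested, and 1, LUM, changed, upward. A fit that also held the log2 fibroblast sum, added with the values in view, gave NT5E a log2 fold change of 0.48 (edgeR adjusted p = 0.0440). The sum does not measure the number of fibroblasts, and whether they had a part in the NT5E level was not tested.

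**Figure D3:**
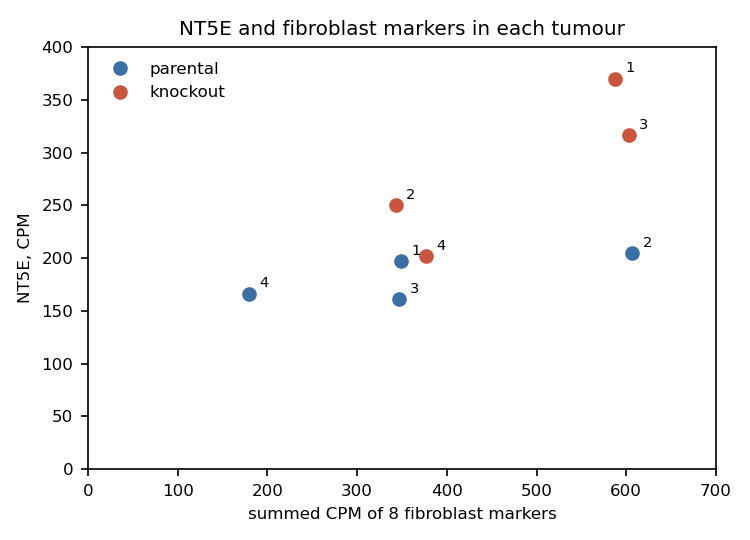
NT5E against the summed level of 8 fibroblast markers, both in CPM on linear axes from 0; each point is 1 tumour, numbered by replicate. NT5E is highest in knockout replicates 1 and 3, at fibroblast sums of 587 and 603 CPM, while parental replicate 2, with a sum of 607 CPM, is at 205 CPM of NT5E.

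The genes that remove and carry adenosine did not pass the threshold. ADA (chromosome 20, 44619522 to 44652233, minus strand), which deaminates adenosine, was at 7.87, 9.76, 7.86 and 8.42 CPM in parental replicates 1 to 4 and at 11.5, 8.14, 11.7 and 10.3 CPM in knockout replicates 1 to 4. Knockout replicates 1, 3 and 4 lay above all parental tumours, and the log2 fold change was 0.30 (95% interval -0.02 to 0.62, edgeR adjusted p = 0.160). Its exons overlap those of PKIG on the other strand, which had a log2 fold change of -0.18 (adjusted p = 0.402). ADK (chromosome 10, 74151185 to 74709303, plus strand), the intracellular kinase that returns adenosine to AMP, was at 47.3 to 64.8 CPM in the parental group and at 51.3 to 55.4 CPM in the knockout group. Its log2 fold change was -0.10 (95% interval -0.33 to 0.14, adjusted p = 0.550). SLC29A1 (chromosome 6, 44219505 to 44234151, plus strand), the transporter ENT1, was at 19.9, 12.5, 16.2 and 23.0 CPM in parental replicates 1 to 4 and within 16.1 to 18.5 CPM in all knockout tumours. Its log2 fold change of -0.04 (95% interval -0.41 to 0.32, adjusted p = 0.883) had no stable sign: it was 0.0042 without parental replicate 1 and 0.10 without parental replicate 4.

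Among the receptors, ADORA2B was the only one of the 4 with counts enough for the test. ADORA2B (chromosome 17, 15944917 to 15975746, plus strand) encodes a low-affinity adenosine receptor, which couples to the G protein that raises cyclic AMP. It was at 12.6, 9.28, 11.2 and 15.2 CPM in parental replicates 1 to 4 and at 8.55, 11.3, 10.6 and 9.66 CPM in knockout replicates 1 to 4. The groups overlapped, with a log2 fold change of -0.27 (95% interval -0.62 to 0.08, edgeR adjusted p = 0.246). ADORA1 (chromosome 1, 203090654 to 203167405, plus strand), a receptor that lowers cyclic AMP, had 4, 6, 10 and 9 counts in parental and 4, 10, 6 and 9 counts in knockout replicates 1 to 4. The totals were 29 and 29, a knockout-to-parental ratio of 1.01 (95% interval 0.583 to 1.75, counting error only; exact two-sided permutation p = 0.886 on CPM). ADORA2A (chromosome 22, 24417879 to 24442360, plus strand), an adenosine receptor of lymphocytes, had 2 counts in parental replicate 1 and none in the other parental tumours, and 1, 0, 2 and 1 counts in knockout replicates 1 to 4. Its ratio of 2.02 has an interval of 0.290 to 22.4, so a difference was not detectable at these counts (exact permutation p = 0.657). Its exons overlap those of SPECC1L-ADORA2A, a protein-coding gene on the same strand with 0 counts in every library. How reads of the shared part were counted is not given in the sources used here. The low counts of ADORA2A therefore cannot be put down to scarcity or depth with certainty. ADORA3 had 2 counts in parental replicate 2 and 0 in the other 7 libraries, and a count of 0 allows up to 3 counts.

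**Figure D4:**
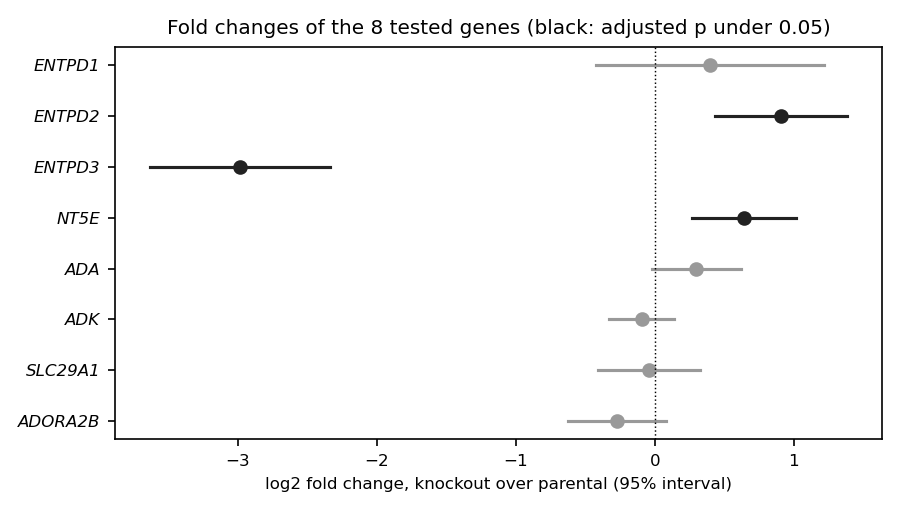
Log2 fold change of knockout over parental tumours for the 8 tested genes, with 95% intervals from edgeR's quasi-likelihood fit (n = 4 each). The intervals of ENTPD2, NT5E and ENTPD3, in black, exclude 0; those of the other 5, in grey, include it.

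Levels could be ranked per length of exon, on the scale of CPM per kilobase. In parental tumours NT5E was highest, at a mean of 40.2 CPM per kb, followed by ADK at 17.9, ADORA2B at 4.74, SLC29A1 at 4.06, ADA at 2.97, ENTPD3 at 2.75, ENTPD2 at 1.46 and ENTPD1 at 0.162. ADORA2B (3.64 to 5.97) and SLC29A1 (2.82 to 5.23) overlapped across the tumours. SLC29A1 also overlapped ADA (2.76 to 3.42) and ENTPD3 (1.85 to 3.48), and those 2 genes overlapped each other. In knockout tumours NT5E was again first at 62.8 CPM per kb and ADK second at 16.8; SLC29A1 (3.66 to 4.20), ADORA2B (3.35 to 4.41) and ADA (2.85 to 4.11) overlapped one another, and ENTPD2 (2.04 to 3.57) overlapped ADORA2B and ADA. ENTPD3 had moved down to 0.346 CPM per kb, within the range of ENTPD1 (0.140 to 0.322) at its lowest value of 0.168. ADORA1 and ADORA2A were last in both groups. These ranks use the counts as given, and same-strand genes overlap the exons of ENTPD1 and ADORA2A. The lengths take in all annotated exons of a gene, whether or not they were expressed here, so close ranks are uncertain.

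Other genes of purine signalling were then counted by lists. Of 100 genes in 6 lists, 77 were tested and 25 changed, 13 upward and 12 downward, or 32.5% against the 27.0% of all genes. Nucleoside transporters other than SLC29A1 had 4 tested members of 6, of which 1 rose and 1 fell (27.0% of all genes changed). SLC29A2, the transporter ENT2, was at 39.6, 32.3, 35.9 and 32.1 CPM in parental and 54.4, 49.7, 53.6 and 59.6 CPM in knockout replicates 1 to 4. The rise was 0.64 in log2 units (SE 0.10; edgeR adjusted p = 0.000581), with no overlap between the groups. SLC29A3, the transporter ENT3 of lysosomes, was at 15.8, 12.5, 14.8 and 13.1 CPM in parental and 5.23, 5.56, 5.18 and 6.58 CPM in knockout replicates 1 to 4. Its log2 fold change was -1.32 (SE 0.13, adjusted p = 3.52e-05), again with no overlap.

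Among other ectonucleotidases and genes of nucleotide release, 11 of 15 were tested, 1 rose and 2 fell. That is 27.3%, at the background of 27.0% of all genes. ENPP1, an ectoenzyme that cleaves ATP to AMP and also degrades the STING activator cyclic GMP-AMP, was at 3.06, 2.44, 3.04 and 3.83 CPM in parental and 0.748, 1.76, 1.73 and 1.63 CPM in knockout replicates 1 to 4. It fell without overlap (log2 fold change -1.08, SE 0.27; edgeR adjusted p = 0.0129). SLC17A9, which loads ATP into vesicles for release, was at 17.3, 15.8, 38.7 and 7.48 CPM in parental and 3.27, 7.995, 3.31 and 6.91 CPM in knockout replicates 1 to 4. Its log2 fold change was -1.88 (SE 0.46, adjusted p = 0.0102), with parental replicate 4 below knockout replicate 2, and -1.33 (adjusted p = 0.0229) without parental replicate 3. ENTPD5, a nucleotidase of the endoplasmic reticulum, rose by 0.47 in log2 units (SE 0.09; edgeR adjusted p = 0.00220).

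The list labelled intracellular purine enzymes also holds the secreted deaminase ADA2 and nucleotidases that are not specific to purines. It had 18 of 21 members tested, with 1 higher and 4 lower, or 27.8%, again near the 27.0% of all genes. AK4, a mitochondrial adenylate kinase, fell from 106 ± 11.6 to 69.8 ± 12.6 CPM (SD, n = 4 each; log2 fold change -0.60, edgeR adjusted p = 0.00662). AHCY, which releases adenosine from S-adenosylhomocysteine inside the cell, fell from 309 ± 28.6 to 244 ± 13.2 CPM (log2 fold change -0.34, adjusted p = 0.0150). The AHCY call was lost without knockout replicate 1 (adjusted p = 0.0509) or knockout replicate 2 (0.0509). The nucleotidase genes NT5C3A (-0.29, adjusted p = 0.0223) and NT5C3B (0.27, adjusted p = 0.0279) moved in opposite directions. The NT5C3A call was lost without knockout replicate 1 (0.0735), and the NT5C3B call without any 1 of parental replicates 2, 3 and 4 and knockout replicates 1, 3 and 4 (0.0531 to 0.0671).

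Of 18 other purinergic receptor genes 6 were tested, so most were too scarce to compare, and 2 changed (33.3% against 27.0% of all genes). P2RY11, a receptor for ATP, had a log2 fold change of 0.62 (edgeR adjusted p = 0.0298), and P2RY6, a receptor for UDP, one of -1.14 (adjusted p = 0.0318). Both calls depended on single tumours: P2RY11 was lost without parental replicate 1 or 4 or knockout replicate 2 or 4 (0.0570 to 0.0860), and P2RY6 without parental replicate 3 or 4 or knockout replicate 1, 2 or 3 (0.0591 to 0.0970).

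Downstream of the receptors, the machinery of cyclic AMP had 26 of 28 genes tested, with 2 higher and 4 lower and a median log2 fold change of -0.0051. The share changed, 23.1%, was below the 27.0% of all genes. The phosphodiesterase gene PDE3B fell from 53.6 ± 2.95 to 26.6 ± 1.70 CPM (log2 fold change -1.01, edgeR adjusted p = 1.03e-05). PRKAR2A and PRKAR1B, regulatory subunits of protein kinase A, fell by 0.81 and 0.80 on the log2 scale (adjusted p = 0.000263 and 0.00161). CREB1, the transcription factor that protein kinase A activates, fell by 0.49 (adjusted p = 0.00713). These 4 genes were named for having the smallest p, and the 2 called higher are not among them.

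Transcripts that cyclic AMP is known to induce, which other growth and stress signals induce too, had 12 genes tested, and 7 rose and none fell, against 13% of all genes called higher. The list had a median log2 fold change of 0.52, against 0.00345 over all genes tested, and 11 of 12 were above 0. Beside these 12, 1 gene of this list and 1 of the cyclic AMP machinery were not analysed here. AREG, a ligand of the EGF receptor, was at 10.3, 13.5, 6.25 and 8.33 CPM in parental and 42.8, 33.6, 35.8 and 24.9 CPM in knockout replicates 1 to 4, and edgeR put the log2 fold change at 1.84 (SE 0.22; adjusted p = 0.000127). PPARGC1A, a coactivator of mitochondrial genes, rose by 1.46 (SE 0.26, adjusted p = 0.00147). PDE4B, a phosphodiesterase that degrades cyclic AMP, rose by 0.91 (SE 0.17, adjusted p = 0.00238), and the nuclear receptor gene NR4A2 by 0.56 (SE 0.11, adjusted p = 0.00232). The groups did not overlap for any of these 4 genes, which were named for having the smallest p. In the whole list they did not overlap for 8 of 12, against 29.3% of all genes tested. The list was chosen with earlier results of these data known, so these shares describe it and are no test. The count of changed genes in the list ran from 5 to 8 over the 18 other analyses. Cyclic AMP was not measured, and whether adenosine receptors had a part in these levels was not tested.

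**Figure D5:**
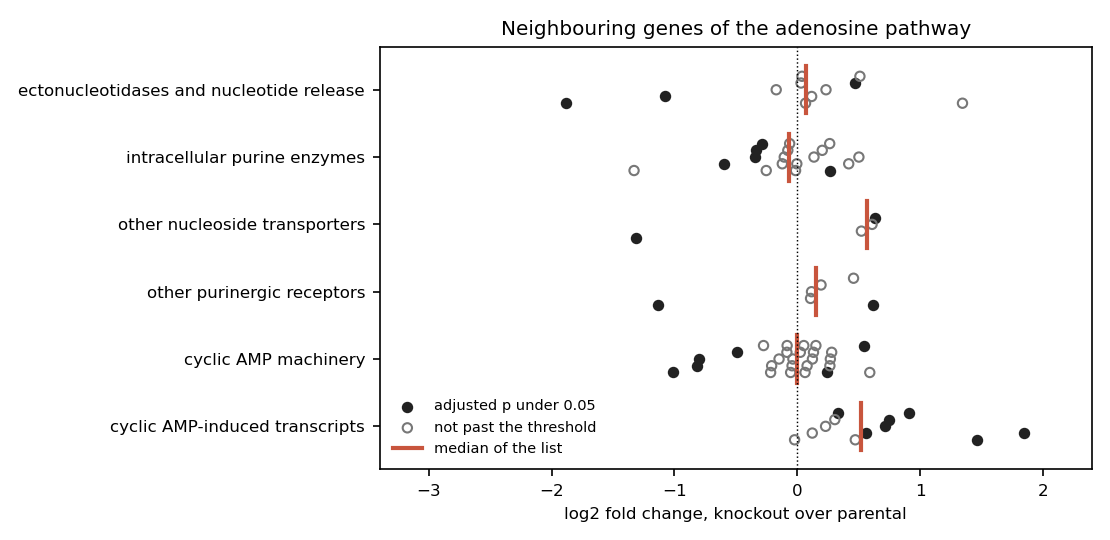
Log2 fold change of knockout over parental tumours for the 77 tested genes of 6 lists around the adenosine pathway; filled points have an adjusted p under 0.05 and the red line is the median of the list. The medians lie between -0.07 and 0.57, and 7 of the 12 cyclic AMP-induced transcripts are filled, all to the right of 0.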

How the data were processed

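RNA was sequenced from 4 parental and 4 SMARCA4 knockout xenograft tumours. The authors deposited 1 file of raw counts per tumour, by gene symbol, and its 5 summary lines were left out. The submitters' processing notes name TopHat2 2.1.1, HTSeq 0.11.0 and hg38; the annotation, strandedness and any separation of mouse reads are not given in the sources used here. Between 79.1% and 85.2% of reads were assigned to a gene. No 2 libraries agreed within sampling noise (chi-square per degree of freedom at least 9.13, over genes with a summed count of 20 or more).

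Counts were fitted with edgeR 4.0.16 in R 4.3.3: filterByExpr (minimum count 10, minimum total 15), TMM scaling and the quasi-likelihood F-test on all 8 tumours, without covariates. Benjamini-Hochberg adjustment ran over 16219 genes, and an adjusted p under 0.05 is called changed. The test was checked on simulated data with the same spread for every gene (dispersion 0.03) and fewer changed genes than here. That check does not cover genes that vary more between tumours. Genes under the filter were compared by exact permutation of CPM and by exact 95% intervals of pooled counts, which cover counting error only. Exon lengths and positions come from GENCODE 29, and promoters and their build from RefSeq.

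The members and lists were chosen with earlier results of these data known. The text names all 10 members, SMARCA4, ADORA3 and up to 4 changed genes with the smallest p in each list. ENTPD8, ENTPD1-AS1, ENTPD3-AS1, AL365273.2, SPECC1L-ADORA2A, PKIG and the markers were named with their values in view. Alternatives were DESeq2 1.42.0, limma-voom (limma 3.58.1), other scalings and filters, the replicate number as a block, leaving out each tumour and, added after seeing the data, marker sums as covariates.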

Additional observations from a re-analysis of the deposited data

Results flagged for a closer look

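Of 74 sets of 4 tumours, 6 had 1 tumour apart from the other 3, where chance gives about 5%. ADORA2A was at 0.104 CPM in parental replicate 1, which is 2 counts, and at 0 in the other parental tumours. ENPP1 was at 0.748 CPM in knockout replicate 1, below the 1.63 to 1.76 CPM of the other knockout tumours. NT5C3A was at 55.3 CPM in parental replicate 4, above 48.1 to 48.9 CPM in the others. PRKAR2A was at 150.4 CPM in the same tumour, above 110 to 114 CPM. Endothelial markers summed to 15.7 CPM in knockout replicate 2, above 9.34 to 9.85 CPM in the others, and skeletal muscle markers to 41.7 CPM in parental replicate 2, above 5.23 to 10.9 CPM. Without parental replicate 2, ENTPD2 (log2 fold change 0.90), NT5E (0.70) and ENTPD3 were still called, as in every fit that left out 1 tumour. The cause of these values was not tested.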

How the results depend on the processing

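The calls of ENTPD2, ENTPD3 and NT5E held in all 18 other analyses, with log2 fold changes of 0.76 to 1.03, -3.20 to -2.75 and 0.48 to 0.78 and largest adjusted p-values of 0.0324, 0.000252 and 0.0481; no other member was called in any. SLC29A1 turned positive without parental replicate 1 (0.0042), without parental replicate 4 (0.10) and with the fibroblast sum as a covariate (0.15), and leaving out 1 tumour gave -0.18 to 0.10. The number of changed genes ran from 3501 (without knockout replicate 1) to 5333 (leukocyte sum as a covariate), and that of the 6 lists from 17 to 32. Replicate numbers did not pair the tumours: deviations of same-numbered tumours correlated at -0.22 to 0.09. With the replicate block 3871 genes and the same number of members, 3, were called, and NT5C3A (adjusted p = 0.0577), NT5C3B (0.0618), P2RY11 (0.0799) and ENTPD3-AS1 (0.0799) lost their calls. Among the other fits on all 8 tumours, P2RY6 lost its call under DESeq2 (0.0512) and with the fibroblast sum (0.0770), NT5C3A with the fibroblast sum (0.0554), NT5C3B with no filter (0.120), and ENTPD3-AS1 under RLE scaling (0.0515), no scaling (0.0579), no filter (0.100) and the leukocyte sum (0.0551). Low counts limit the receptors under the filter. Fitted by edgeR with no filter, ADORA1 (log2 fold change 0.0070, adjusted p = 0.99998), ADORA2A (0.83, 0.702) and ADORA3 (-2.33, 0.416) were not called.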
